A study of Homo sapiens with 4 samples.

Results

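The zinc finger genes described here are the protein-coding genes of chromosome 19 whose symbol is ZNF followed by a number, with at least 100 estimated counts summed over 4 libraries. They number 220, out of 246 such genes in the annotation (GENCODE 29, GRCh38) and 22603 genes of any kind with a count. RNA was measured by poly-A RNA-seq in iMGL, microglia-like cells made from the WTC11 line of human induced pluripotent stem cells, an established line. S1KO cells, edited to lack SHIP1 (the inositol 5-phosphatase encoded by INPP5D), gave 2 libraries, and unedited WT cells gave 2. All other features of the cells (line, differentiation and kit) are the same in the labels. The design text states 2 clones per genotype without tying a clone to a library. The p-values therefore cover only the spread among these 4 libraries, and a clone cannot be told apart from its genotype where each library is its own clone.

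Most ZNF genes of chromosome 19 encode KRAB zinc finger proteins. Their arrays of C2H2 fingers bind DNA, and their KRAB domain recruits TRIM28 (KAP1), a scaffold that brings in the histone methyltransferase SETDB1 and HP1 proteins. They are best known for silencing transposable elements, and arose by repeated duplication, which left them in tandem groups along the chromosome. Microglia are the macrophages of the brain, in which SHIP1 acts at the membrane on phosphoinositides.

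The sequences just upstream of these genes differ between the tandem groups, and 4 are shown because they hold 8-letter words found more often in some groups than in others. The 250 bases before the RefSeq start (GRCh38.p14) were searched on both strands in 197 of the 220 genes, the other 23 having no entry used here. ZNF418 (chr19:57935403-57935652, minus strand) and ZNF546 (chr19:39996810-39997059, plus strand) carry ACTACATT, shown in capitals, 1 copy each. Most matched genes of their groups lack it, as it was in 17 of 52 in the group of ZNF418 and 1 of 3 in that of ZNF546. ZNF493 (chr19:21396883-21397132, plus strand) carries 1 copy of TCCAATCA, an extended CCAAT box, and ZNF682 (chr19:20039506-20039755, minus strand) carries 2, also in capitals.
ZNF418: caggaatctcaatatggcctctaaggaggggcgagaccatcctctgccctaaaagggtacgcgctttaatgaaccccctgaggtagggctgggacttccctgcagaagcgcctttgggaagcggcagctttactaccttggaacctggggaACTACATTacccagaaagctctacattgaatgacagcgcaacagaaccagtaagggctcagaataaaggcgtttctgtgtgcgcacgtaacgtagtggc
ZNF546: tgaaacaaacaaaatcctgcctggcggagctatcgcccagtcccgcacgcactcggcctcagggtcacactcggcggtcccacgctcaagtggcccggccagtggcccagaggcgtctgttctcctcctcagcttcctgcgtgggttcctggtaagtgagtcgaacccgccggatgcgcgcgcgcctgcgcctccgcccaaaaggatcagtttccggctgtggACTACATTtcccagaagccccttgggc
ZNF493: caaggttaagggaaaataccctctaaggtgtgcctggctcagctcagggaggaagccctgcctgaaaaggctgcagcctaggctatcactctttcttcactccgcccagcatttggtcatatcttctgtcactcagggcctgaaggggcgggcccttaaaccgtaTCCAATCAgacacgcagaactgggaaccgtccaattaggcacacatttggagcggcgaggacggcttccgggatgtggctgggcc
ZNF682: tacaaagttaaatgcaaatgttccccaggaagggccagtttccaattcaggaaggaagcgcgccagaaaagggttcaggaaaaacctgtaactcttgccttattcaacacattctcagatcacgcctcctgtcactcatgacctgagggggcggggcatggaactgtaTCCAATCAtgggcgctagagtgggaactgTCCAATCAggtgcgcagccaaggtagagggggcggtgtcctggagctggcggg

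TCCAATCA was present upstream of 43 of the 197 genes (21.8%), against 8.56% of 187 ZNF genes on other chromosomes and 1.79% of 27305 gene symbols in the promoter table. It was found in 22 of 22 matched genes between 19.7 and 24.1 Mb, in 16 of 21 between 11.5 and 12.6 Mb and in 4 of 5 between 2.8 and 2.9 Mb. ACTACATT was present upstream of 37 genes (18.8%), against 3.21% of the ZNF genes elsewhere and 1.1% of all symbols. Of these, 17 lay among the 52 matched genes between 55.5 and 58.5 Mb, 11 among 24 between 36.2 and 37.8 Mb, and 6 among 19 between 43.5 and 45.1 Mb, while the group at 19.7 to 24.1 Mb held 0. The ETS word CCGGAAG was in 33% of the genes, 34.2% of the other ZNF genes and 10.2% of all symbols. TATAAA was in 3.05%, 6.95% and 13% of these sets. Every TCCAATCA holds CCAAT, which alone was in 53.3% of the genes and 37% of all symbols. GGGCGGGG, the SP1 word, was in 34.5% of the genes and 25.2% of all symbols. The words were picked after the sequences were seen, and a match is a description of the letters only.

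The libraries differ in ways that bear on these genes. Total estimated counts were 21516813 to 25927881. The mitochondrial genome gave 52.3% of the S1KO 1 counts and 39.2% of the S1KO 2 counts, against 14.2% in WT 1 and 18.9% in WT 2. Together with the nuclear copies of its genes it gave 58.8% and 41.8% in S1KO and 15.4% and 20.1% in WT, which left 9319000 and 12891104 counts for other genes in S1KO and 18055337 and 20540060 in WT. All levels were therefore scaled to the counts outside mitochondrial genes. INPP5D, the targeted gene, had 128 and 155 CPM (TMM-scaled counts relative to library size) in S1KO and 566 and 690 in WT, and fell by 2.15 on the log2 scale (SE 0.20, edgeR quasi-likelihood test, adjusted p = 0.0184). That call was lost when either S1KO library was left out (-2.02 without S1KO 1 and -2.29 without S1KO 2). In those fits the lone S1KO library is assumed to vary like WT. A call lost there, here or for a gene below, therefore does not speak to that gene alone. The 9 microglia markers were above 1 CPM in all 4 libraries and summed to 2942 and 3101 CPM in S1KO against 4230 and 4502 in WT. They did not all go 1 way. TREM2, P2RY12, CX3CR1, C1QA and CSF1R were below WT in both S1KO libraries. The groups overlapped for SPI1 (log2 fold change -0.32), AIF1 (0.14), GPR34 (0.05) and TMEM119 (0.29). The 5 mesenchymal markers summed to 11.3 and 29.3 CPM in S1KO, 5027 in WT 1 and 4.30 in WT 2. The 5 pluripotency markers summed to 22.9 and 23.5 CPM in S1KO and 8.88 and 10.3 in WT, the 5 neural markers to 1.21 and 2.36 in S1KO and 13.8 and 2.21 in WT with SOX1 at 0 in all 4, the 4 erythroid markers to at most 1.25 in any library, and the 4 granulocyte markers to 0. Their part in the results below was not tested. In bulk RNA, fewer cells of a type and less RNA per cell cannot be told apart.

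The chromosome 19 ZNF genes are low-abundance transcripts as a set. Together they took 0.358% and 0.409% of the counts outside mitochondrial genes in S1KO, against 0.331% and 0.334% in WT; the half-widths of the 95% Wilson intervals were at most 0.0038 percentage points and cover counting error only. A gene's counts over the 4 libraries ranged from 107 to 6141, with a median of 593. Just inside the threshold were ZNF460 (107 counts), ZNF540 (108) and ZNF491 (122), and just outside were ZNF781 (95.3), ZNF492 (93.9) and ZNF610 (82.1). Of the 26 genes under the threshold, 12 lie between 19.7 and 24.1 Mb. All 220 passed edgeR's filter on low counts and were tested.

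Levels between genes were compared per length, as TPM rescaled outside mitochondrial genes. The mean over the 4 libraries ran from 0.727 TPM to 122 TPM with a median of 6.53, and 139 genes were under 10. ZNF546 was the highest, with 200.5 and 195.0 TPM in S1KO and 49.9 and 42.8 in WT. A transcript of 490 nt, described further on, is part of that level, and a short transcript weighs heavily in TPM. ZNF780A, its neighbour in a group of 3 genes at 40.0 to 40.1 Mb, followed with 109.9 and 151.1 TPM in S1KO and 73.3 and 97.1 in WT. Its fold change on counts was 0.08 on the log2 scale (SE 0.19), with overlapping groups.

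The next levels belong mostly to genes without a KRAB pattern. ZNF787 had 75.7 and 84.4 TPM in S1KO and 93.0 and 115.1 in WT. ZNF580, a protein with 3 fingers, had 55.8 and 87.3 TPM in S1KO and 85.0 and 111.6 in WT. ZNF428, with a single finger pattern, had 62.7 and 78.1 TPM in S1KO and 110.6 and 85.4 in WT. In ZNF787 and ZNF428 both S1KO libraries were below both WT libraries, and in ZNF580 the groups overlapped. ZNF358 averaged 71.8 TPM over the 4 libraries, ZNF561 55.6 and ZNF414 55.4. Neighbours in this order overlap in their library values, except that ZNF358 lay above ZNF561 in every library.

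The comparison of S1KO with WT asks how loss of SHIP1 goes with the expression of these genes. Of the 220, ZNF471 and ZNF418 rose in S1KO and 0 fell at an adjusted p under 0.05 (edgeR quasi-likelihood test, Benjamini-Hochberg over all 15422 genes tested); at an unadjusted p under 0.05, 31 were higher and 5 lower. Over all genes tested 0.791% were called higher and 0.143% lower (0.934% in either direction), and 10.4% and 8.95% had an unadjusted p under 0.05 in these directions. The 2 calls are thus near that background share. DESeq2 called 10 of the genes higher and 1 lower, where it called 4.15% of 14824 genes higher and 3.44% lower.

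Scaled outside mitochondrial genes, the list lay slightly higher in S1KO as a whole, a sign that flips on TPM with those genes in the total. Its median log2 fold change was 0.18 (quartiles -0.11 and 0.56), against -0.01 over all genes tested, -0.02 over the 224 ZNF genes on other chromosomes and -0.06 over the 898 other protein-coding genes of chromosome 19 tested. On TPM with mitochondrial genes kept in the total, where the median of all genes moved to -0.78, the list was at -0.52, still above the median of all genes. Both S1KO libraries lay above both WT libraries in 90 of the 220 genes (40.9%) and below them in 28 (12.7%), against 26.6% and 25.1% of all genes tested. ZNF genes on other chromosomes gave 58 of 224 above (25.9%) and 55 below (24.6%). Fold changes of 2 or more were found upward in 18 of the genes and downward in 2, against 8.98% and 6.58% of all genes tested. Among the 224 ZNF genes on other chromosomes they were upward in 7 and downward in 1. At an unadjusted p under 0.05 (edgeR), 19 of those 224 were higher and 5 lower (2.23%), against 2.27% lower in the list. Few downward genes by these measures are thus not particular to chromosome 19. With 2 libraries against 2 no exact permutation test of a single value can go below 1 in 3, and no test was made of the list.

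**Figure D1:**
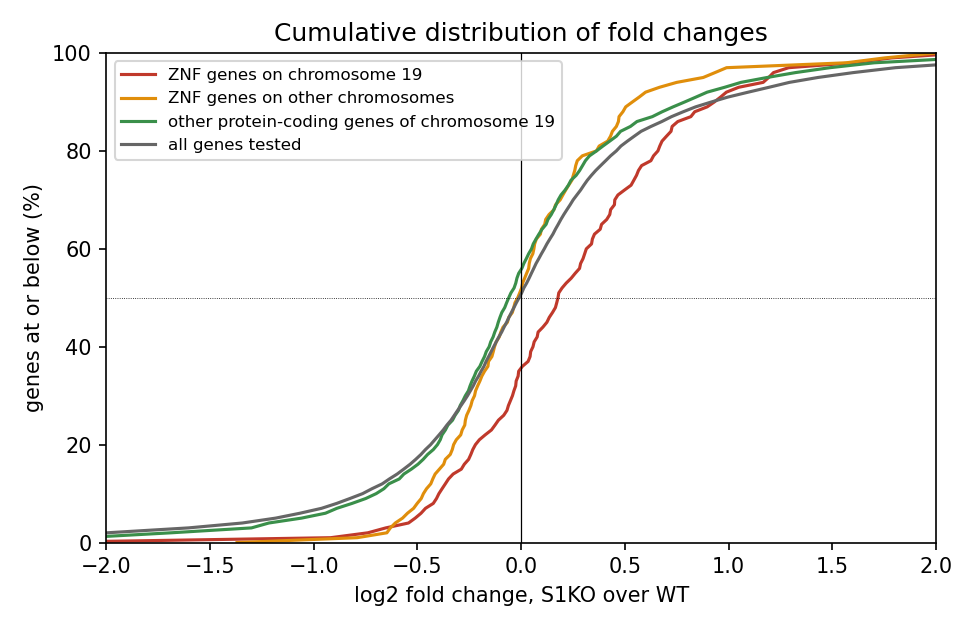
Cumulative percent of genes (y axis) at or below a log2 fold change of S1KO over WT (x axis, TMM-scaled counts outside mitochondrial genes) for the chromosome 19 ZNF genes, ZNF genes on other chromosomes, other protein-coding genes of chromosome 19, and all genes tested. The curve of the chromosome 19 ZNF genes crosses 50% at 0.18 and the other 3 curves between -0.06 and -0.01. On log2(TPM + 1) with mitochondrial genes kept in the total the chromosome 19 median is -0.52.

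The 2 S1KO libraries were not alike in this respect. The genes summed to 3539 CPM in S1KO 1 and 3945 in S1KO 2, against 3402 in WT 1 and 3426 in WT 2, and their median was 10.4 and 11.4 CPM against 9.11 and 9.05. S1KO 2 was above S1KO 1 in 143 of the 220 genes, and WT 2 above WT 1 in 102. The median log2 fold change was 0.26 without S1KO 1 and 0.13 without S1KO 2. Without WT 1, the library with the mesenchymal transcripts, it was 0.20, and 14 of the 220 genes were called higher and 5 lower, where 972 of 15892 genes of all were called higher and 1180 lower. Without WT 2 it was 0.14, with 15 higher and 2 lower, where 1023 of 16067 genes of all were higher and 1367 lower. These shares of the 220 higher are close to those of all genes. ZNF genes on other chromosomes summed to 7401 and 7774 CPM in S1KO and 7347 and 8084 in WT, which overlap.

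ZNF471 (ENSG00000196263, chr19:56507843-56530221, plus strand) encodes a KRAB protein in which 15 finger patterns were found. Its level was 44.7 and 33.7 CPM in S1KO against 9.45 and 10.997 in WT. The lower S1KO library was about 3 times the higher WT library. It rose by 1.94 on the log2 scale (SE 0.24, 95% interval 1.35 to 2.53, edgeR adjusted p = 0.0400). All but a trace of its counts were on ZNF471-202, a transcript of 5859 nt in 5 exons with an annotated coding sequence of 741 nt, which had 421 and 450 estimated counts in S1KO and 166 and 219 in WT. The 15 finger patterns were counted on the translated transcript that held the most of them, whatever its level. Of the 31-base words of ZNF471 94.9% occur in no other gene's transcripts. The direction was the same in 18 of 18 alternatives and 12 passed the threshold. Like that of INPP5D, the call was lost when either S1KO library was left out (1.72 without S1KO 1 and 2.13 without S1KO 2). With limma on log2(TPM + 1), mitochondrial genes in the total, it was at 0.63 (adjusted p = 0.233), and with protein-coding transcripts only at 1.92 (edgeR adjusted p = 0.0831).

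ZNF418 (ENSG00000196724, chr19:57921884-57935393, minus strand) encodes a KRAB protein with 17 finger patterns, and its upstream sequence is the first of the 4 printed above. It had 14.9 and 13.7 CPM in S1KO against 3.19 and 3.30 in WT. The libraries of each genotype lay close together and the groups far apart. It rose by 2.13 on the log2 scale (SE 0.32, 95% interval 1.37 to 2.90, edgeR adjusted p = 0.0472). The difference was on ZNF418-210, a 597-nt transcript (chr19:57922431-57935176) with 384 nt of annotated coding sequence, which had 124 and 158 estimated counts in S1KO and 16.04 and 24.04 in WT. The long transcripts ZNF418-201, ZNF418-202 and ZNF418-205, which carry 2028 to 2091 nt of coding sequence, had few counts in both genotypes: S1KO 1 had 0, S1KO 2 had 23.5 on ZNF418-201, WT 1 had 9.60 on ZNF418-201 and 25.5 on ZNF418-202, and WT 2 had 35.9 on ZNF418-205, before any scaling for depth. With the replicate number as a block ZNF418 was at 2.13 with an adjusted p of 0.0686 in edgeR, and 11 of 18 alternatives passed the threshold, all with the same sign and adjusted p from 1.08e-05 to 0.700. With the effective length offset it was at 2.99. Without S1KO 1 it was at 2.07 and without S1KO 2 at 2.20, and like that of INPP5D its call was lost in both fits.

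ZNF611, ZNF546, ZNF66, ZNF493, ZNF699, ZNF880 and ZNF320 had large fold changes that did not pass the threshold. ZNF611 had 49.2 and 36.9 CPM in S1KO against 14.9 and 17.8 in WT, a log2 fold change of 1.39 (SE 0.24, edgeR adjusted p = 0.0605). ZNF546 had 52.4 and 56.2 CPM in S1KO against 22.3 and 25.7 in WT (1.18, SE 0.19, adjusted p = 0.0562). In both genes every S1KO library was more than 2 times every WT library. ZNF66 had 12.7 and 11.2 CPM in S1KO against 3.02 and 3.95 in WT (1.78, SE 0.35, adjusted p = 0.0840). Of its difference of 8.50 CPM between the group means, 6.88 were on transcripts matched to ZNF66 by symbol only. Its transcripts matched by identifier had 2.97 and 3.17 CPM in S1KO and 1.66 and 1.30 in WT. ZNF493 had 19.3 and 20.3 CPM in S1KO against 8.99 and 7.15 in WT (1.29, SE 0.27, adjusted p = 0.0901). Each of these 4 genes passed the threshold in DESeq2. On log2(TPM + 1) with mitochondrial genes in the total, where the median of all genes was -0.78, limma gave 0.083 for ZNF611 (adjusted p = 0.896), 0.996 for ZNF546, 0.73 for ZNF66 and 0.56 for ZNF493, none past the threshold.

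ZNF699 was low, at 5.31 and 5.76 CPM in S1KO against 1.59 and 1.60 in WT (1.79, SE 0.42, edgeR adjusted p = 0.107), and it passed the threshold in DESeq2 (1.78, adjusted p = 0.0371). On log2(TPM + 1) limma gave it 0.17 (adjusted p = 0.648). ZNF880 had 10.2 and 8.15 CPM in S1KO against 4.61 and 2.90 in WT (1.29, SE 0.40, adjusted p = 0.173). ZNF320 had 16.6 and 7.55 CPM in S1KO against 1.54 and 5.70 in WT (1.73, SE 0.69, adjusted p = 0.243). The groups do not overlap in any of the 3, but the 2 libraries of each genotype were far apart in ZNF320. Only 20.8% of the 31-base words of ZNF320 are its own, so its estimated counts depend on how reads were divided among relatives, and its sign turned with an offset for effective length (-0.11).

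The lowest fold changes belonged to ZNF682, ZNF177 and ZNF628. ZNF682, whose upstream sequence holds TCCAATCA 2 times, had 0.425 and 1.12 CPM in S1KO against 4.16 and 4.15 in WT, a log2 fold change of -2.37 (SE 0.59, edgeR adjusted p = 0.118). In DESeq2 it was at -2.40 with an adjusted p of 0.0430. Its transcript ZNF682-212, a single exon annotated as retaining an intron, had 0 and 6.35 estimated counts in S1KO and 43.4 and 27.8 in WT. ZNF177 had 1.70 and 1.79 CPM in S1KO against 4.61 and 2.60 in WT (-1.04, SE 0.51, adjusted p = 0.325), and only 11.6% of its 31-base words are its own.

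ZNF628, which has no KRAB pattern, had 9.45 and 8.60 CPM in S1KO against 12.4 and 22.5 in WT (-0.95, SE 0.35, edgeR adjusted p = 0.220). ZNF568, known in the mouse for repressing a placental transcript of Igf2, had 3.51 and 3.44 CPM in S1KO against 5.81 and 5.80 in WT (-0.74, SE 0.38, adjusted p = 0.340). ZNF582, ZNF749, ZNF428 and ZNF865 had log2 fold changes of -0.72, -0.60, -0.56 and -0.52 with adjusted p of 0.423, 0.476, 0.211 and 0.245. Their S1KO libraries were below their WT libraries by less than 2-fold on average.

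**Figure D2:**
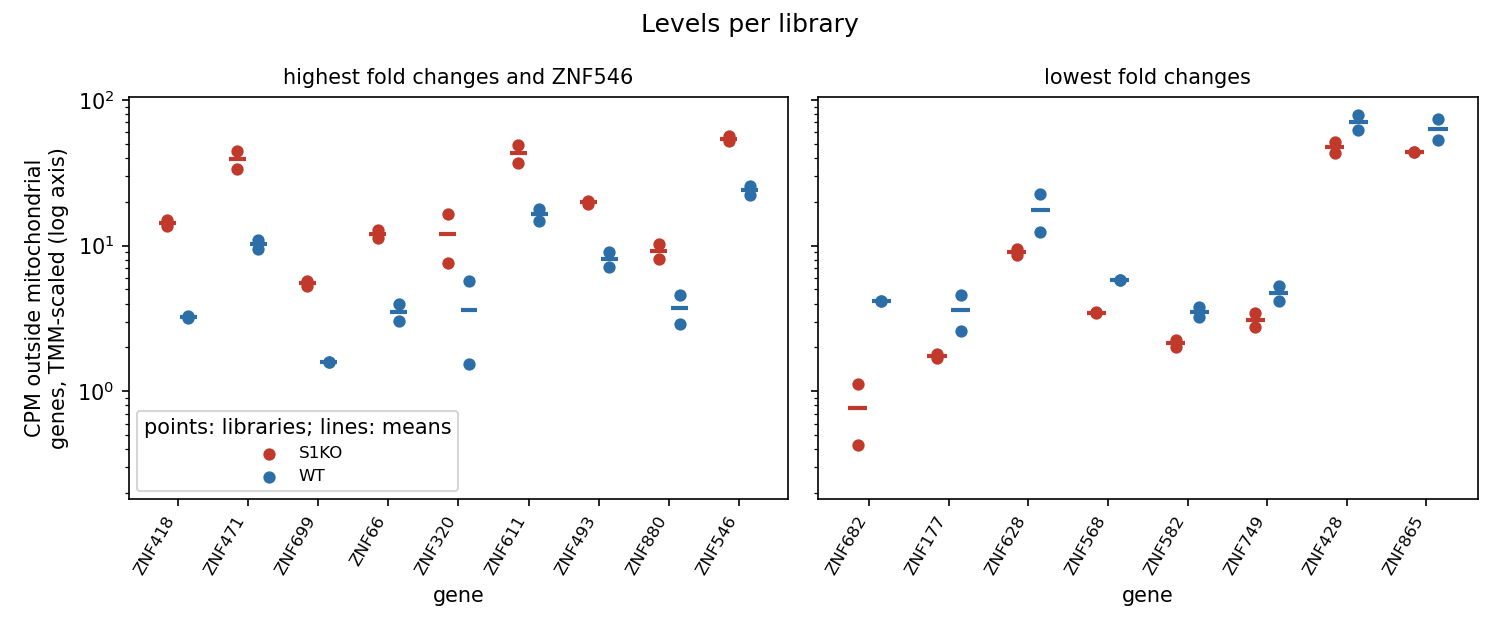
CPM outside mitochondrial genes (TMM-scaled, log axis) per library, S1KO left and WT right in each gene, for the 8 genes with the highest fold changes and ZNF546 (left panel) and the 8 with the lowest (right panel), among genes whose groups do not overlap. Points are libraries and lines are group means; ZNF418 stands at 14.9 and 13.7 in S1KO and 3.19 and 3.30 in WT, and ZNF682 at 0.425 and 1.12 in S1KO and 4.16 and 4.15 in WT.

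In several of these genes much of the difference lay in a transcript that does not carry the full coding sequence. ZNF546-202, annotated as retaining an intron, is 490 nt long in 4 exons at the 5′ end of the gene (chr19:39997038-39999830). It had 172.7 and 218.5 estimated counts in S1KO and 60.8 and 50.6 in WT. Of the gene's difference of 30.3 CPM between the group means, 14.3 were on this transcript and 15.1 on transcripts matched to ZNF546 by symbol. The latter had 26.2 and 28.1 CPM in S1KO and 11.1 and 12.8 in WT, and have no class here. In each library this equals the level of all ZNF546 transcripts matched by identifier. Whether they are copies of those transcripts was not tested, so the part of ZNF546-202 may be larger than 14.3. The classed coding transcripts of ZNF546 had 7.83 and 11.5 CPM in S1KO and 7.62 and 9.84 in WT, which overlap, and with these alone the gene's log2 fold change was 0.13 (SE 0.36, edgeR adjusted p = 0.884). ZNF611-208, a single exon of 1244 nt annotated as retaining an intron, had 241.5 and 202.0 estimated counts in S1KO and 90.5 and 98.3 in WT. The coding transcripts of ZNF611 were at 5.97 and 2.44 CPM in S1KO and 1.98 and 1.61 in WT. In ZNF493 the difference was on ZNF493-201 (1665 nt, 309 nt coding), with 147.7 and 176.6 counts in S1KO and 42.5 and 23.9 in WT, while ZNF493-203, with 2322 nt of coding sequence, had 7.73 and 40.5 in S1KO and 56.5 and 35.6 in WT.

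**Figure D3:**
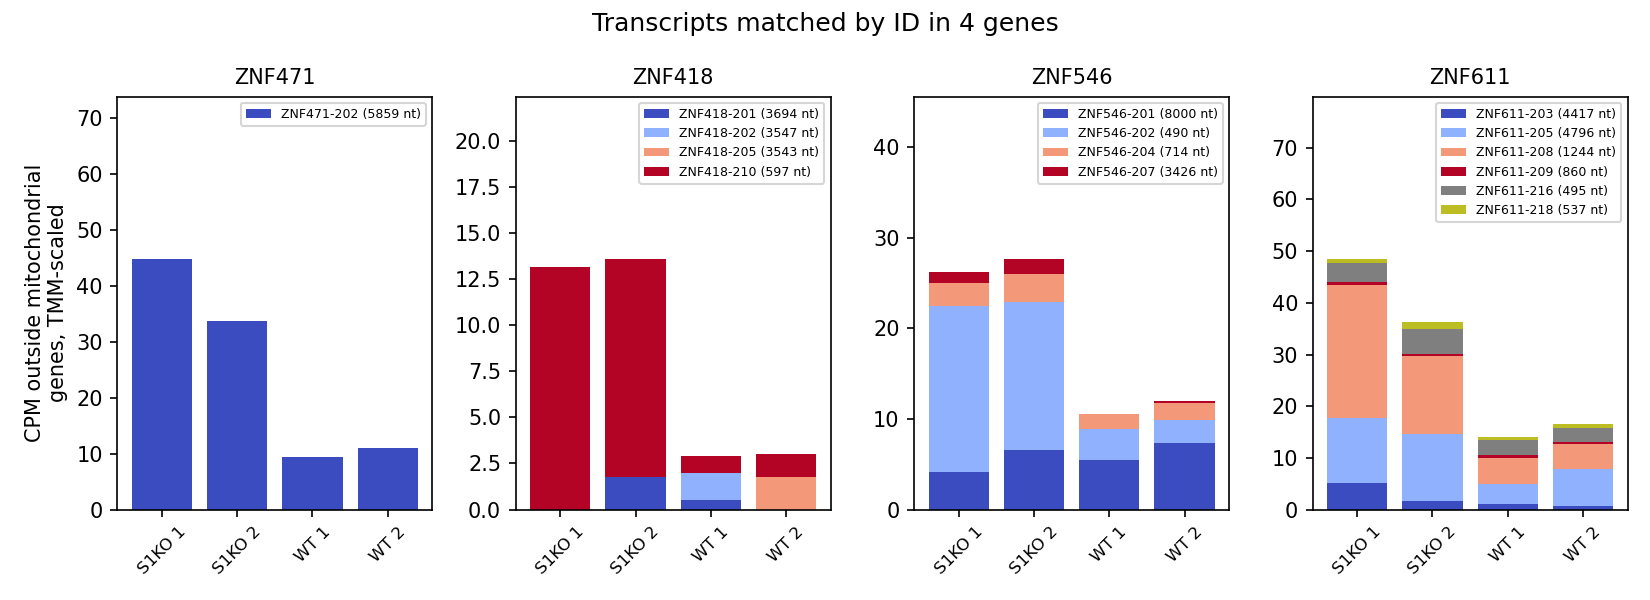
CPM outside mitochondrial genes per library (bars, S1KO left of WT), split by annotated transcript, for ZNF471, ZNF418, ZNF546 and ZNF611; transcripts with at least 20 counts that matched the annotation by identifier are drawn. ZNF471 is drawn as 1 transcript of 5859 nt, and S1KO minus WT is 11.4 CPM on ZNF418-210 (597 nt), 14.3 on ZNF546-202 (490 nt) and 15.3 on ZNF611-208 (1244 nt); symbol-matched transcripts of ZNF546, with a further 15.1 CPM of difference, are not drawn.

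On protein-coding transcripts alone, both S1KO libraries lay above WT in 81 of the 220 genes and below in 30, and 109 overlapped. The same counts over all genes are not given here. Protein-coding transcripts held 86.7% to 88.7% of the genes' counts matched by identifier. A gene picked on its sum is therefore likely to show the same on this part. Of the 90 genes whose S1KO libraries lay above WT, 76 did so on protein-coding transcripts alone, 11 overlapped and 3 went the other way; of the 28 below, 23 were below and 5 overlapped. Retained-intron transcripts held 6.96% and 7.64% of the genes' counts in S1KO and 6.66% and 7.60% in WT, with Wilson half-widths up to 0.277 percentage points. Over all protein-coding genes the share was 8.87% and 11.3% in S1KO and 10.8% and 12.5% in WT. The label protein-coding also covers transcripts with a short annotated coding sequence, such as ZNF418-210 (384 nt) and ZNF471-202 (741 nt), which held all but a trace of the ZNF471 counts. In 8 genes, ZNF546 and ZNF66 among them, part of the counts was on transcripts matched by symbol, which have no class here and are left out of these shares. The sources used here give no strand setting for the counting, so reads of antisense neighbours cannot be told apart.

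The KRAB domain and the number of fingers were not used to choose the genes. A KRAB A-box pattern was found in 188, whose median log2 fold change was 0.23, with 82 genes above WT in both S1KO libraries and 22 below. The 32 without it had a median of -0.01, with 8 above and 6 below. These 32 genes also had higher levels (median 11.8 TPM against 6.22) and a higher GC content (61.9% against 42.4%), so KRAB, level and GC cannot be told apart from these medians. Proteins held 0 to 32 finger patterns with a median of 12. The median fold change was 0.15 for 43 genes with up to 8 fingers, 0.24 for 70 genes with 9 to 12, 0.06 for 63 with 13 to 16 and 0.22 for 44 with more, with no order by finger number.

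The fold changes also went with level. Protein-coding genes tested were cut into 3 equal bins of expression. In the low and the middle bin the 124 and 80 ZNF genes had medians of 0.22 and 0.26, where protein-coding genes had 0.06 and -0.03. In the top bin the 16 ZNF genes had a median of -0.18, and protein-coding genes -0.05. By GC content of the main transcript the medians were 0.19 (138 genes), 0.30 (57) and -0.02 (25) from the lowest to the highest of 3 bins, beside 0.06, 0.04 and -0.14 for protein-coding genes. An offset for GC content and transcript length left 1 gene called. The median of the list and the calls over all genes in that fit are not given here. The 46 genes with under 80% of their 31-base words unique had a median of 0.23, and the 174 others 0.17.

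Along the chromosome the genes fell into 15 groups with at least 1 member, separated by gaps over 1 Mb. The largest, 57 genes between 55.5 and 58.5 Mb near the q-arm end, holds ZNF471 and ZNF418 and had a median log2 fold change of 0.17, with 20 genes above WT and 10 below. The 36 genes between 51.6 and 53.6 Mb, which include ZNF611, ZNF320 and ZNF880, had the highest median among groups of 10 or more, 0.41, with 18 above and 4 below. The 25 genes between 19.7 and 24.1 Mb, beside the centromere, had 0.35, with 14 above and 4 below. This group holds ZNF66, ZNF493 and also ZNF682, the gene with the lowest fold change of all 220.

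The 25 genes between 36.2 and 37.8 Mb had a median of 0.25, with 12 above and 1 below, the 22 between 11.5 and 12.6 Mb 0.16, with 8 above and 2 below, and the 22 between 43.5 and 45.1 Mb 0.10, with 7 above and 2 below. The 14 genes between 7.1 and 9.8 Mb, where ZNF699 and ZNF177 lie, had a median of -0.06, with 6 above and 2 below. Each of the 7 groups thus held genes of both signs. The genes of one group are related copies and not independent of each other.

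By mean TPM, each group had 1 leading gene. ZNF431 led the group at 19.7 to 24.1 Mb, with 55.2 and 65.4 CPM in S1KO against 62.0 and 56.0 in WT. ZNF700 led the one at 11.5 to 12.6 Mb by mean TPM, with 47.9 and 48.7 CPM in S1KO against 61.4 and 76.2 in WT, a log2 fold change of -0.51 (SE 0.18). ZNF146, which consists of fingers alone, led the one at 36.2 to 37.8 Mb, with 51.2 and 45.5 CPM in S1KO against 59.9 and 37.6 in WT. Both S1KO libraries were below WT for ZNF700, and the groups overlapped for the other two. ZNF611, the leader at 51.6 to 53.6 Mb, was at 1.39 with a group median of 0.41, and ZNF358, the leader at 7.1 to 9.8 Mb, was at -0.12 with a group median of -0.06. Among leaders of the small groups, some of which are the only gene of their group, the log2 fold change was -0.27 for ZNF333, 0.15 for ZNF302, -0.04 for ZNF554, 0.31 for ZNF574, 0.12 for ZNF507, -0.04 for ZNF473 and 0.68 for ZNF114, and 0 of these passed the threshold.

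**Figure D4:**
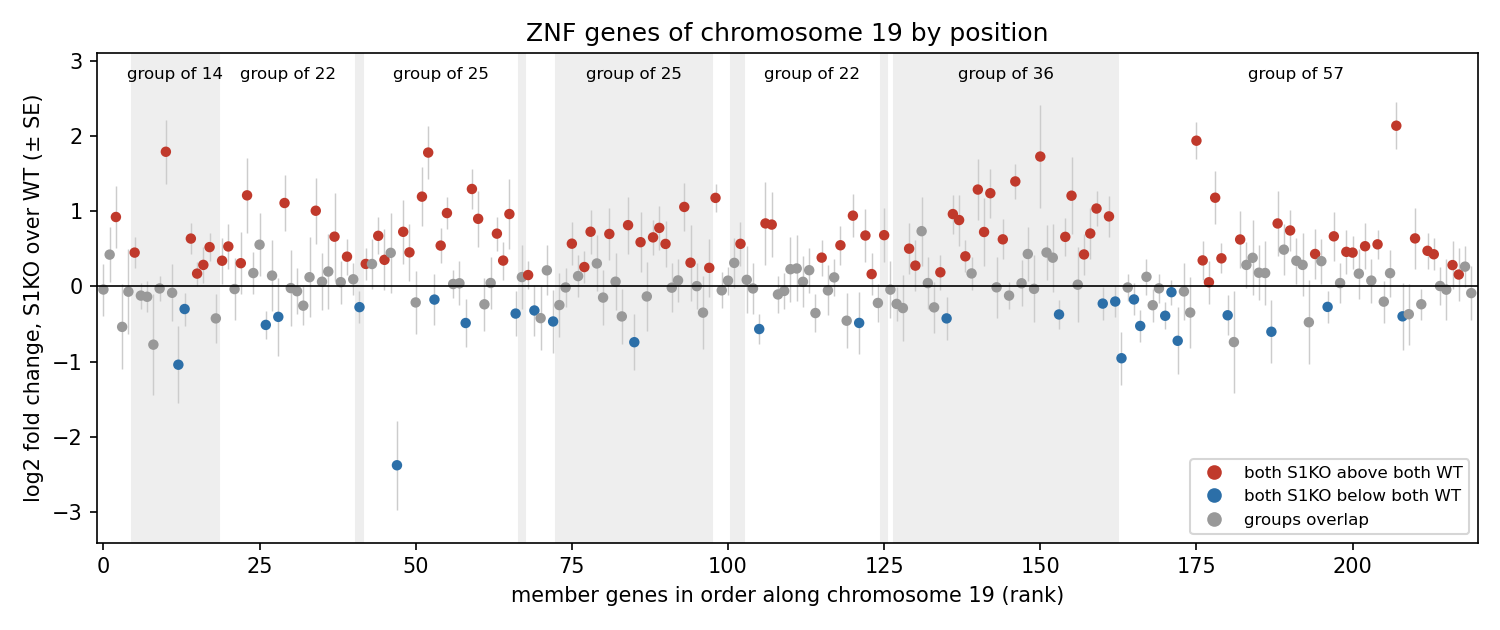
Log2 fold change of S1KO over WT (y axis, points, with the standard error as bars) of the 220 genes in their order along chromosome 19 (x axis, rank); shading alternates between position groups, and groups of at least 10 genes are named by their size. Red points have both S1KO libraries above both WT libraries (90 genes), blue points both below (28) and grey points overlap (102). Red and blue points occur in each group of at least 10 genes. With mitochondrial genes kept in a TPM total the counts are 6 above and 131 below, on a scale where the median of all genes is negative too. The share of all genes above and below on that scale is not given here.

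Fold changes of genes with and without an upstream word are given as medians, and no test was made. For the ETS word CCGGAAG the medians were 0.15 with it and 0.25 without. Genes with TCCAATCA had a median of 0.30 and genes without it 0.17, with 18 of 43 above WT and 6 below. Genes with ACTACATT had 0.17 and those without 0.18, with 14 of 37 above and 6 below. TCCAATCA was in 22 of 22 matched genes at 19.7 to 24.1 Mb, where word and position cannot be told apart. ACTACATT varied within groups, with 17 of 52 matched genes at 55.5 to 58.5 Mb and 11 of 24 at 36.2 to 37.8 Mb. Genes with and without a word were not compared within a group.

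The partners of KRAB zinc finger proteins were examined as a list of 30 genes for the corepressors and the heterochromatin they set. Of these, 1 rose and 0 fell in edgeR's test, the median log2 fold change was 0.05, and 7 lay above WT in both S1KO libraries (23.3%) and 5 below (16.7%). Over all genes tested 0.791% and 0.143% were called and 26.6% and 25.1% lay above and below, so the counts above and below are near or under that background. TRIM28, the scaffold itself, had 319 and 349 CPM in S1KO against 376 and 330 in WT, with a log2 fold change of -0.08 (95% interval -0.48 to 0.32, adjusted p = 0.830); its sign turned to 0.06 with the offset for GC content and length. SETDB1 had 105 and 112 CPM in S1KO against 97.6 and 101 in WT (0.12, 95% interval -0.25 to 0.50, adjusted p = 0.705; -0.86 on log2(TPM + 1) with mitochondrial genes in the total).

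MPHOSPH8, a subunit of the HUSH complex that binds methylated histone H3 and silences transposable elements and other repeats, was the gene that rose. It had 438 and 418 CPM in S1KO against 176 and 182 in WT, with little spread within each genotype. Its log2 fold change was 1.26 (SE 0.15, edgeR adjusted p = 0.0382), with the same sign in 18 of 18 alternatives, 14 past the threshold. It was not called without S1KO 1 (1.22) or without S1KO 2 (1.30), fits in which INPP5D was not called either. It was also not called by limma on log2(TPM + 1) (0.57, adjusted p = 0.334) or by edgeR with protein-coding transcripts only (1.23, adjusted p = 0.0831). The other HUSH subunits, FAM208A (TASOR) and PPHLN1, had log2 fold changes of -0.03 and -0.24 with adjusted p of 0.929 and 0.476. KIAA1551 (RESF1), a partner of SETDB1, was at -0.43 (SE 0.16, adjusted p = 0.217) and DNMT1, the maintenance DNA methyltransferase, at 0.53 (SE 0.19, adjusted p = 0.218), which turned to -0.34 on log2(TPM + 1). SMARCAD1, CHD4 and ATF7IP were at -0.40, 0.35 and -0.39 with adjusted p of 0.264, 0.288 and 0.344. Their signs also turned in at least 1 alternative: SMARCAD1 to 0.031 and ATF7IP to 0.12 on log2(TPM + 1) outside mitochondrial genes, and CHD4 to -0.74 with those genes in the total.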

How the data were processed

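RNA of 4 libraries was sequenced as paired reads of 150 bp after poly-A selection, per the labels' protocols. The submitters' processing notes name kallisto and hg38; the sources used here give neither a version nor the transcript set. Each library has 1 deposited file, which per the file headers lists every transcript with its length, its estimated count and its TPM.

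Transcripts were summed to genes with GENCODE 29: 169797 matched by identifier, 15521 by symbol, and 3435 had no gene and were left out (0.323% to 0.643% of counts). Sums of estimated counts were rounded. Mitochondrially encoded genes and their nuclear copies were removed before library sizes were set. Genes were filtered with filterByExpr (15422 kept), scaled by TMM and tested two-sided with edgeR 4.0.16 (glmQLFit, glmQLFTest, R 4.3.3), with genotype alone in the model and p-values adjusted by Benjamini-Hochberg (0.05). Common biological variation was 0.297. Levels are CPM on the TMM scale, with no prior count added. The fit was tested on simulated data. DESeq2 1.42.0 and limma 3.58.1 were alternatives, with other scalings, filters, transcript classes, a replicate block and each library left out.

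KRAB and C2H2 patterns were searched in proteins translated from GENCODE 29 coding sequences, in place of a RefSeq protein table that had been planned for. Unique 31-base words were counted over all GENCODE transcripts, and upstream sequences came from RefSeq (GRCh38.p14). The genes and lists were chosen with earlier results of these data known. Genes named were those past the threshold, the 8 highest and 8 lowest fold changes among genes whose groups do not overlap, the 8 of highest mean TPM, the highest of each position group, 6 corepressors of smallest p with TRIM28 and SETDB1, the 3 genes on each side of the count threshold, and INPP5D; FAM208A and PPHLN1 were named after their values were seen. In every pair of libraries at least 76 genes lay over 4-fold apart, so no library was a copy of another.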

Additional observations from a re-analysis of the deposited data

How the results depend on the processing

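Of the chromosome 19 ZNF genes 2 were called higher and 0 lower. With DESeq2's size factors in edgeR 1 was called higher, and 1 also with the offset for GC content and length (chosen after seeing the data). With the effective length offset 4 were higher. The calls over all genes in these alternative fits are not given here, so these counts have no background beside them. DESeq2 called 10 higher and 1 lower (all genes 615 and 510), no filter 8 and 1 (581 and 766), and protein-coding transcripts only 0 and 0 (all genes 0 and 0, with 2237 at an unadjusted p under 0.05 and 0 corepressors called). Without TMM 12 genes of all were lower.

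With limma on log2(TPM + 1) these genes called were 1 higher and 16 lower, and 2698 genes of all were lower. Their median was -0.52 (ZNF genes elsewhere -0.75), and 6 lay above and 131 below. This total holds the mitochondrial genes, which shifts the median of all genes to -0.78. The share of all genes above and below on this scale is not given here, so the 6 and 131 have no background beside them. With limma outside mitochondria 4 of these genes were higher with either pseudocount, 262 genes of all were higher, the ZNF genes elsewhere were at 0.081 (+ 1) and 0.089 (+ 0.1), and the median of the chromosome 19 genes was 0.27 (+ 0.1). In the main fit, 155 of the chromosome 19 genes had at least 400 counts. Of these, 62 lay above WT (40%) and 18 below (11.6%), against 26.6% and 25.1% of all genes tested.

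Leaving out 1 library, these genes called ranged from 0 to 15 higher and 0 to 5 lower, all genes from 0 to 1023 higher and 0 to 1367 lower, corepressors from 0 to 2, the median from 0.13 to 0.26, these genes below WT from 45 to 64 and above from 109 to 126 of 220, beside 35.2% to 40.3% and 35.8% to 38.6% of all genes tested. The lone library of a group is then assumed to vary like the other group.

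The replicate numbers share only a number: deviations of same-numbered libraries correlated at 0.037 over genes. With the replicate block 1 of these genes was called higher, and 89 genes of all were higher and 27 lower.

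Signs turned for ZNF320 (effective length -0.11, TPM + 1 -1.06, outside mitochondria -0.32 and -0.45), ATF7IP (0.011, and outside mitochondria 0.12 and 0.12), SMARCAD1 (0.031 and 0.032 outside mitochondria), TRIM28 (0.062 with the GC and length offset), and with TPM + 1 SETDB1 (-0.86), DNMT1 (-0.34) and CHD4 (-0.74). Of 26 named genes 19 kept their sign in every alternative. The causes were not tested. S1KO depth outside mitochondrial genes, 9319000 counts in the smaller library, limits what can be seen in the low genes.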
